A study of Mus musculus with 198 samples.

Results

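The keratin genes were followed through 9 tissues of C57BL/6 mice that had been given either an antibody against PAPP-A (aPAPPA, 10 mice) or a control treatment (12 mice) over 17 weeks. The antibody's target, PAPP-A, is a metalloproteinase outside cells whose cuts in IGFBP-4 and IGFBP-5 release insulin-like growth factor. The treated group held 5 males and 5 females, the control group 6 of each, and the labels name no transgene or deletion and give neither age nor the body site of the skin. Skin, heart, lung, liver, kidney, spleen, bone marrow, gonadal fat and subscapular fat were taken whole from the same 22 mice, so that each mouse is a replicate and gave 1 library per tissue. Members were all genes whose symbol is Krt followed by a number and at most 1 letter, which left out the keratin-associated proteins, and 54 of the 56332 features met that rule. They were divided by textbook knowledge into 16 hair shaft keratins, 9 keratins of the inner root sheath and companion layer of the hair follicle, 21 keratins of the epidermis and other stratified epithelia, 6 keratins of simple epithelia and 2 left unclassed (Krt90 and Krt222). The skin library of treated mouse 36 was left out by the rule, which left 9 treated and 12 control skins, or 11 male and 10 female ones.

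Keratins are the intermediate filament proteins of epithelial cells, and each filament pairs an acidic type I chain with a basic or neutral type II chain. In the mouse the type I genes lie in a cluster on chromosome 11 and the type II genes in a cluster on chromosome 15, which also holds the type I gene Krt18, and the members fell evenly, 27 on each (build mm10). Basal cells of the epidermis make Krt5 and Krt14, cells that leave the basal layer turn to Krt1, Krt10 and, closest to the surface, Krt2, while Krt8 and Krt18 form the filaments of single-layered epithelia such as those of liver, kidney tubules and glands. Hair follicles go through cycles of growth, regression and rest, and the keratins of the hair shaft and inner root sheath are made in the growing follicle.

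The sequences just before the start sites are shown for 4 hair shaft keratins, 2 inner root sheath keratins and the epidermal Krt2 as examples of the 3 classes whose skin levels are described below. Each is the 250 bases before the RefSeq start on the minus strand of GRCm38.p6, 5′ to 3′, and capitals mark a TATA box (TATAAA) or a LEF/TCF motif (CTTTGAA or CTTTGTT, or the reverse complement of either).
Hair shaft, Krt31 (chr11:100050552-100050801), Krt32 (chr11:100088270-100088519), Krt33b (chr11:100029869-100030118) and Krt34 (chr11:100041555-100041804):
Krt31: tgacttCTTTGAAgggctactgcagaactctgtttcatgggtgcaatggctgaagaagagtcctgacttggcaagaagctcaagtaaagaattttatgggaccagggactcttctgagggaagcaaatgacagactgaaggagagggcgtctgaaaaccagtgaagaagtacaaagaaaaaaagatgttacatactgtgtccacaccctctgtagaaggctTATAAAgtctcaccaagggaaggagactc
Krt32: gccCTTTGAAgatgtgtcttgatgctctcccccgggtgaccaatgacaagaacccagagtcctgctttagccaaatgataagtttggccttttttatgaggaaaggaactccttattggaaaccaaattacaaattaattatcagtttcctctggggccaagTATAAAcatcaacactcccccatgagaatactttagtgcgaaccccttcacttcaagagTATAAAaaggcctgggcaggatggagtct
Krt33b: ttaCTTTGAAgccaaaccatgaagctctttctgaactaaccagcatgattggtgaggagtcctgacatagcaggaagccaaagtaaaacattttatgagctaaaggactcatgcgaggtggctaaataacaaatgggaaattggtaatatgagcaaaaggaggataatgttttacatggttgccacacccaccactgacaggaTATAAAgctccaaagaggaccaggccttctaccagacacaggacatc
Krt34: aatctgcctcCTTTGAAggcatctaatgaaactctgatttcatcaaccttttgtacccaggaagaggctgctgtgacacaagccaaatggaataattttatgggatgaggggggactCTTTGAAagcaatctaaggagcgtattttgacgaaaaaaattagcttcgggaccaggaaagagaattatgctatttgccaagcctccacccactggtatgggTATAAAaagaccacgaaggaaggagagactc
Inner root sheath, Krt25 (chr11:99322952-99323201) and Krt71 (chr15:101743098-101743347):
Krt25: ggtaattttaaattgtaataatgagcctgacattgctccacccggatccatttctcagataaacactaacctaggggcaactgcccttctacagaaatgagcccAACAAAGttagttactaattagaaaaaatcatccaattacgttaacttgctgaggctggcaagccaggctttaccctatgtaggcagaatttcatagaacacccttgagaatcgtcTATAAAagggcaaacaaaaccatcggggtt
Krt71: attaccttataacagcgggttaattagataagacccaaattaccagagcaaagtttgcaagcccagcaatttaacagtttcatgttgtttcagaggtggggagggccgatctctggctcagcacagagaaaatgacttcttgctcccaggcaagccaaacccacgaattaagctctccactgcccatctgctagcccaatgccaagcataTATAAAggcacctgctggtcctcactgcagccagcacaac
Epidermis, Krt2 (chr15:101818170-101818419):
Krt2: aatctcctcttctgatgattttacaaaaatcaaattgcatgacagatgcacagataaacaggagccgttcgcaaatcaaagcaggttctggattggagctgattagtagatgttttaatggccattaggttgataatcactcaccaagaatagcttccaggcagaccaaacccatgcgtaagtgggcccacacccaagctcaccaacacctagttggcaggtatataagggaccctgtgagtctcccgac

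Promoter windows of 250 bases before to 50 bases after the start were found by symbol for 36 of the 54 members, and Krt13 had 2 of them. The motifs were searched on both strands, and no match printed above overlaps another. TATAAA was present in 6 of 9 hair shaft windows (66.7%), 7 of 8 root sheath windows (87.5%), 4 of 14 epidermal windows (28.6%) and 2 of 5 simple epithelial windows (40%), against 13.6% of all 32851 mouse windows. The LEF/TCF letters, named for the factors that Wnt signalling uses in the follicle, were present in 5 of 9 hair shaft windows (55.6%), 2 of 8 root sheath windows (25%), 1 of 14 epidermal windows (7.14%) and 0 of 5 simple epithelial windows, against 10.6% of all windows. In Krt31, Krt32 and Krt33b this motif began 244 to 247 bases before the start and in Krt34 240 and 133 bases before it. All 4 hair shaft genes printed above have both motifs, so they do not stand for the 9 windows. The windows of Krt36, Krt40, Krt82 and Krt84 lacked the LEF/TCF letters. An AP-1 motif (TGANTCA) was present in the 2 windows of Krt13 alone, of 14 epidermal windows (14.3%), against 7.81% of all windows. A match describes the letters only and is not a bound site.

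Libraries held 4138419 to 19517950 counts, but 9 features, chiefly ribosomal RNA and genes that overlap it, took most of them. The count outside these 9 had a median of 1100503 over 197 libraries and of 657377 in skin, where it ran from 201092 to 1815492. A level is given here as CPM, scaled to the counts outside these 9 features, and 3 counts, the limit that a count of 0 allows, correspond to 1.65 to 14.9 CPM in a skin library. Such limits cover counting error only. Levels are compared between genes only per kilobase of exon. The length used is the union of all annotated exons of a gene, such as 4415 bases for Krt1 and 2197 for Krt5. It can exceed the length of the transcript that is made, which lowers the level per kilobase. The cornified envelope gene Lor, which marks differentiated epidermis, was present in every skin library at 450.5 to 1094. In 4 libraries outside skin the markers of the labelled tissue were low. The lung of control mouse 68 had a summed lung epithelium marker level of 8.514, against 14600 to 36750 in the other 21 lungs. The hearts of treated mouse 56 and control mouse 22 had summed cardiomyocyte marker levels of 2381 and 3072, against 17400 to 44390 in the other 20 hearts. The gonadal fat of treated mouse 58 had a summed adipocyte marker level of 3284, against 7531 to 20420 in the other 21.

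Across tissues, skin was where keratins were abundant. Of the 54 members, 44 had a median level of 1 or more in skin, against 5 in bone marrow, 6 in kidney, 7 in heart, liver and spleen, 8 in lung and 10 in each fat depot. The hair shaft class accounted for 15 of its 16 members in skin and the root sheath class for 9 of 9, while outside skin no root sheath keratin and at most 2 hair shaft keratins reached that level. Skin had the highest median for 42 members. In 18 of them every skin library lay above every library of all other tissues, which held for 0.785% of all features: 14 epidermal keratins and the root sheath keratins Krt27, Krt28, Krt71 and Krt73. Krt10 ran from 2340 to 13990 in skin, against 11.78 in the highest library elsewhere, and Krt71 ran from 13.86 to 3277 in skin, against 2.086 in the highest library elsewhere. No hair shaft keratin was among the 18, since in each at least 1 skin library lay within the range of the other tissues. In the fit of all libraries, edgeR tested 28 keratins in skin over the mean of the other 8 tissues and called 27 at an adjusted p under 0.05, when 71.9% of all 18210 genes were called, 23 of them higher (35% of all genes) and 4 lower (36.9%). A keratin near 0 in the other tissues could pass the low count filter of this fit only through skin. The 23 are therefore not a like share to the 35%. The 4 that were lower were Krt8 (log2 fold change -4.70 ± 1.09, SE), Krt18 (-3.73), Krt7 (-1.35) and Krt222 (-1.16), while Krt23, a type I keratin grouped here with the simple epithelial ones, was among the 23 that were higher. These folds average log levels, so for a gene near 0 in skin or elsewhere the size depends on the prior count. The counts called for the other tissues below come from the same fit and are out of the same 28 keratins.

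**Figure D1:**
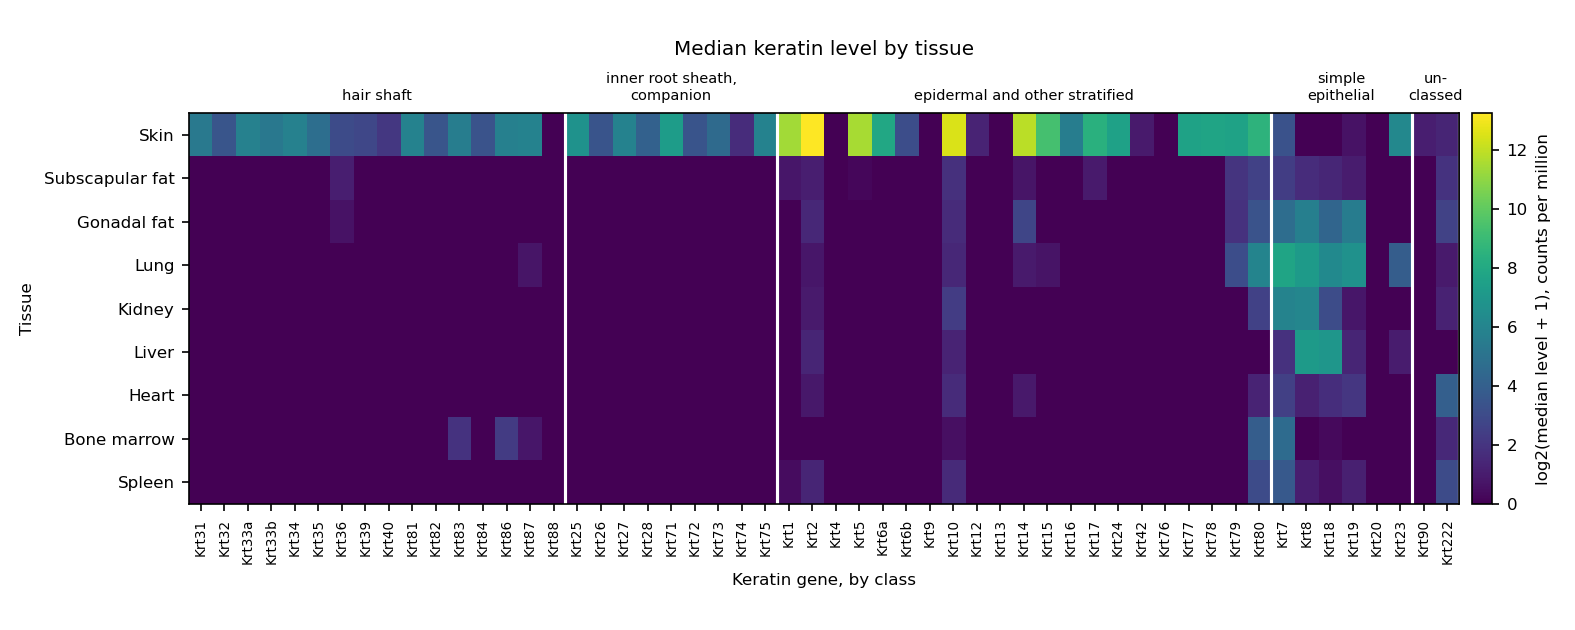
Median level of the keratin genes (columns, by class) in each of the 9 tissues (rows), as log2 of CPM outside the abundant features plus 1, over 21 mice in skin and 22 in every other tissue. Hair shaft and root sheath keratins reach a median of 1 almost nowhere but in skin; Krt7, Krt8, Krt18 and Krt19 stand out in lung, and in liver Krt8 and Krt18 do.

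In lung, liver and kidney the most abundant keratins were simple epithelial ones. In lung, Krt7 ran from 15.61 to 409.5 (median 209.4), Krt8 from 17.03 to 216.2 (median 146.8), Krt19 from 50.37 to 203.3 (median 102.9) and Krt18 had a median of 77.49. The lowest Krt7 and Krt8 levels belonged to the lung of mouse 68, in which the lung markers were nearly missing. All 5 simple epithelial keratins tested were higher in lung than in the mean of the other tissues by edgeR, with log2 fold changes from 3.20 (Krt18) to 4.97 (Krt19), among 10 keratins called (62.6% of all genes), 8 of them higher (34%). In liver Krt8 ran from 87.6 to 190.8 (median 149.5) and Krt18 from 81.36 to 141.5 (median 121.7), and per kilobase their medians were 76.34 and 84.71. These are the only pair that hepatocytes are known to make, and Krt7 (median 2.662) and Krt19 (median 1.603), which bile duct cells add, were low there. The Krt8 levels of liver and lung overlapped. In kidney Krt8 (median 66.65) and Krt7 (median 59.34), known from collecting ducts, stood above Krt18 (median 7.338), and per kilobase the medians were 34.04 for Krt8, 8.418 for Krt7 and 5.106 for Krt18. The gap between Krt8 and Krt7 per kilobase rests largely on their exonic lengths, 1958 and 7049 bases. Liver had 8 keratins called (73.3% of all genes), 3 of them higher (31%), and kidney 4 (69.6%), 2 of them higher (32.9%).

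Gonadal fat held Krt8 (7.148 to 159.3, median 51.18), Krt19 (median 46.2), Krt7 (median 25.52) and Krt18 (median 19.22), and 6 of the 7 keratins called there (65.6% of all genes) were higher than in the mean of the other tissues (33.2%), with Krt19 at a log2 fold change of 3.75 ± 0.27 (SE). Bone marrow had Krt7 (median 24.12) and Krt80 (median 13.82), and the hair shaft keratins Krt86 (median 3.95) and Krt83 (median 2.81) were called higher than the mean of the log levels of the other tissues, most of which are near 0 for these genes, although their skin medians (53.26 for Krt86 and 48.56 for Krt83) lay above those of marrow. Krt81, Krt83, Krt86 and Krt87 are near-identical copies, so which of them these reads belong to is uncertain. Of 13 keratins called in marrow (85.4% of all genes), 3 were higher (40.5%). In heart the leading member was Krt222, a keratin-like gene without a known place in epithelia, at 0.9744 to 29.25 (median 15.1) and a log2 fold change of 3.34 ± 0.15 over the mean of the other tissues. Heart had 7 called (66.6% of all genes), 5 of them higher (33.6%), and spleen 6 (73.4%), of which Krt222 (median 7.279) was the only member higher (36.8%). Subscapular fat had 14 called (65.9%), 11 of them higher (35.7%) and 3 lower (30.1%). The lower ones were Krt10, Krt80 and Krt78, whose fitted log2 fold change of -0.0045 gives no direction. In heart, the 2 libraries with low cardiomyocyte markers were also the 2 with the highest Krt8 and Krt18. Mouse 56 had 109.1 for Krt8, 143.6 for Krt18 and the lowest Krt222, and mouse 22 had 70.4 for Krt8, 108.3 for Krt18 and 153.4 for Krt7. Without the 4 libraries with low tissue markers, 30 keratins were called in skin, 8 in gonadal fat and 5 in heart. That fit tested a different set of keratins, so these counts are not out of the same base. The share of all genes called in it is not given here.

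In skin, the keratins together took 2.18% to 5.98% of the counts outside the abundant features (median 3.02%). Per kilobase the order of the medians was Krt2 (3712), Krt10 (2689), Krt14 (2106), Krt5 (1352), Krt1 (625.6), Krt15 (370.8), which marks basal and bulge keratinocytes, and Krt17 (217.9), of the outer root sheath and of wounded epidermis. Krt2 ran from 2409 to 31090 CPM with a median of 9700, Krt10 from 2340 to 13990 with a median of 5685 and Krt14 from 1940 to 5364 with a median of 3702. The highest and lowest skins lay much farther apart for Krt2 than for the basal Krt14, and the ranges of these 3 genes overlapped. Among the follicle keratins the highest medians per kilobase were those of Krt71 (71.86), Krt25 (54.59) and Krt27 (36.81) in the root sheath and of Krt34 (34.07), Krt81 (27.25) and Krt86 (27.13) in the shaft. Of the simple epithelial class, Krt23 ran from 17.23 to 155.6 (median 72.11) and Krt7 from 0 to 25.03 (median 9.204), and Krt8, Krt18, Krt19 and Krt20 stayed at or under 4.209 in every skin. Krt4 and Krt13, keratins of the mouth and oesophagus, gave 3 and 4 counts over all 21 skins, and Krt76 gave none. Beside these, Krt12, Krt39, Krt40, Krt42, Krt74, Krt88, Krt90 and Krt222 were also under the low count filter, with medians of 0 to 6.085. Genes of similar sequence (Krt6a with Krt6b, and Krt14 with Krt16, Krt17 and Krt42, among others) can share reads, though how alike they are was not measured. Exons of 12 members overlap a gene on the opposite strand, Krt6b, Krt8 and Krt10 among them. Whether counting used strand is not given in the sources used here, so such values are uncertain.

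**Figure D2:**
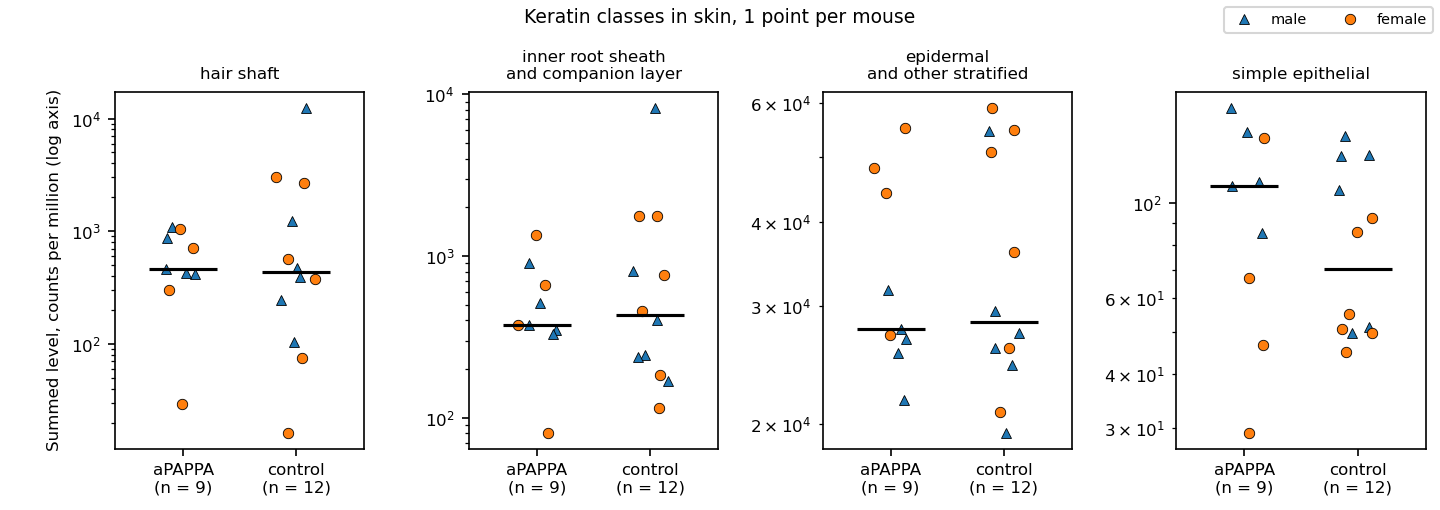
Summed level of each keratin class in every skin library (log axis, CPM outside the abundant features), aPAPPA left of control, with bars at the medians and triangles for males and circles for females. The epidermal sums lie between 19450 and 59040 in all 21 skins, whereas the hair shaft sums run from 16.3 to 12400.

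Most follicle keratins varied widely between mice, and 1 library weighed on this. The coefficient of variation over the 21 skins had a median of 208% (167% to 240%) for hair shaft keratins and 191% (123% to 221%) for root sheath keratins, against 71.8% (21.3% to 297%) for epidermal keratins and 58.1% for simple epithelial ones. Without control mouse 71 the medians were 106% for hair shaft keratins (87.1% to 186%) and 89.8% for root sheath keratins (64.4% to 104%), against 71.7% for epidermal keratins (18.6% to 298%). Control male 71 had the highest level in 13 of 15 hair shaft keratins and in 9 of 9 root sheath keratins with a mean of 1 or more. Its Krt81 was 1663, with 416.9 in the next library, and its Krt71 was 3277, with 761.3 in the next, while its Krt2 (2409) was the lowest of all skins. This skin also had the highest levels of the follicle transcription factors Lef1 (83.72) and Hoxc13 (56.73). Control females 22 and 18 followed, with hair shaft sums of 3024 and 2692.

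Krt81, of the hair shaft, and Krt71, of the root sheath, moved together. Over the 21 skins the log2 levels (level plus 1) of Krt81 and Krt71 had a Pearson r of 0.969 (permutation p = 1e-05, the smallest that 100000 resamples can give, adjusted p = 6e-05 over 6 relations) and a Spearman rho of 0.943 (permutation adjusted p = 6e-05). Without mice 4 and 71, the farthest from the median of Krt81, r was 0.948, and it was 0.961 in the 11 males and 0.986 in the 10 females. Krt2 ran against Krt81 with a Pearson r of -0.578 (permutation p = 0.00612, adjusted p = 0.0184) and a Spearman rho of -0.575 (permutation adjusted p = 0.0227), and r was -0.518 without those 2 mice, -0.722 in males and -0.443 in females. Krt2 against Krt71 gave a Pearson r of -0.546 (permutation adjusted p = 0.0222) and a Spearman rho of -0.443 (permutation adjusted p = 0.0898). The 3 relations with Krt23 had permutation adjusted p of 0.0778 or more. The genes share libraries, and their levels share the same total.

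Between treated and control skins no keratin passed the test. Of the 54 members 39 passed the low count filter, and edgeR called 0 of them at an adjusted p under 0.05, as it called 0 of all 11736 genes tested (0%). DESeq2 called 0 keratins as well. At an unadjusted p under 0.05 edgeR had 8 keratins, against 3.96% of all genes. In whole skin, fewer cells of a type and less RNA per cell cannot be told apart. The summed hair shaft keratins were 29.28, 465.2 and 1086 (lowest, median and highest) in treated skins, against 16.3, 431.9 and 12400 in control skins. The medians are close, and the 4 highest sums are those of control mice 45, 18, 22 and 71 (1231, 2692, 3024 and 12400). The root sheath sums were 80.96, 375.7 and 1345 in treated skins, against 115.6, 429.9 and 8209 in control skins, and the epidermal sums were 21710, 27730 and 55080 in treated skins, against 19450, 28440 and 59040 in control skins. The simple epithelial sums were 29.28, 109.2 and 166 in treated skins, against 45.05, 70.38 and 142.7 in control skins. The groups overlapped in every class.

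The fitted log2 fold changes of the follicle keratins nevertheless lay on the same side. All 13 hair shaft keratins tested, of 16, were below 0 (-2.48 to -1.21, median -1.68) and all 8 root sheath keratins tested, of 9, likewise (median -1.28), beside a median of -0.02 over all genes. This rested on few libraries. Without control mouse 71 the hair shaft median was -0.41 and the root sheath median -0.11. Without the 3 control skins highest in hair keratins (18, 22 and 71) the hair shaft median was 0.88 with 0 of 11 keratins below 0, and the root sheath median was 0.50. These 3 were picked from the control arm alone by the levels tested, so a move upward was built in and the sign gives no direction. Krt81 averaged 76.6 ± 55.3 in treated skins and 230.6 ± 470.4 in control skins (SD, n = 9 and 12), with medians of 59.53 and 49.66, at a log2 fold change of -1.60 ± 0.87 (SE, unadjusted p = 0.0781, edgeR adjusted p = 1). Krt71 was 29.28, 157.5 and 531.8 in treated skins, against 13.86, 142.5 and 3277 in control skins (log2 fold change -1.25 ± 0.75, SE), and Krt25, its type I partner in the root sheath, was 29.28, 109.4 and 344.3 in treated skins, against 4.075, 104.8 and 1953 in control skins (-1.09 ± 0.73).

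The smallest p-values below 0 were those of Krt36 and Krt84. Krt36 (11:100102007-100105626, minus strand, mm10) was 1.098, 5.819 and 34.3 in treated skins, against 0, 16.55 and 206.4 in control skins, a log2 fold change of -2.48 ± 0.84 (SE, unadjusted p = 0.00724, edgeR adjusted p = 1). Krt84 (15:101525026-101532820, minus strand, mm10) was 1.723, 8.683 and 22.63 in treated skins, against 0, 11.06 and 214.3 in control skins, a log2 fold change of -2.37 ± 0.81 (SE, unadjusted p = 0.00762, edgeR adjusted p = 1). For both genes the same 4 control skins (mice 18, 22, 68 and 71) were high, at 80.97 to 206.4 for Krt36 and 82.08 to 214.3 for Krt84, and all other skins were at or under 34.3. In the opposite direction Krt77, an epidermal type II keratin known in humans from sweat gland ducts, had 1.723, 197.9 and 1534 in treated skins, against 2.628, 126.1 and 427.5 in control skins, a log2 fold change of 1.57 ± 0.63 (SE, unadjusted p = 0.0203, edgeR adjusted p = 1). Treated mice 33 (1084) and 41 (1534) were the only skins above 427.5. Krt6a, a keratin of the companion layer and of wounded epidermis, was 102.2, 195.8 and 695.1 in treated skins, against 195.4, 279.8 and 1369 in control skins (log2 fold change -0.82 ± 0.35, SE).

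**Figure D3:**
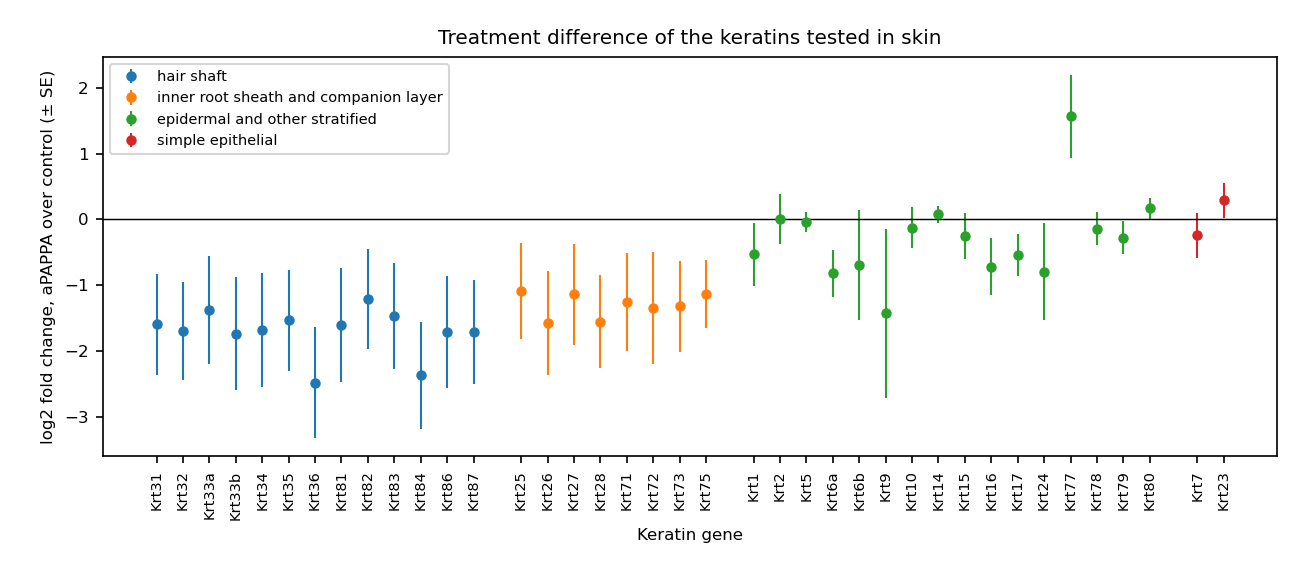
Log2 fold change in skin, aPAPPA over control, of each of the 39 keratins tested, with its standard error, by class. Hair shaft and root sheath keratins lie below 0 with wide errors, epidermal keratins lie on both sides of 0 (-1.43 to 1.57), and none passed the adjusted threshold.

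The most abundant epidermal keratins had overlapping levels in the 2 arms. Of 16 epidermal keratins tested, of 21, 12 were below 0, with a median of -0.26 (-1.43 to 1.57). Krt2 was 5745, 10880 and 26950 in treated skins, against 2409, 9565 and 31090 in control skins, at a log2 fold change of 0.00 ± 0.38 (SE). Krt10 was 3079, 5846 and 12930 in treated skins, against 2340, 5334 and 13990 in control skins (-0.13 ± 0.31), and Krt1 was 1430, 2102 and 15930 in treated skins, against 1021, 3129 and 19370 in control skins (-0.53 ± 0.47). The basal Krt14 and Krt5 had the narrowest errors, at 0.08 ± 0.13 and -0.04 ± 0.15. Of the simple epithelial keratins, Krt23 was 17.23, 95.52 and 155.6 in treated skins, against 28.91, 60.92 and 130.5 in control skins (0.29 ± 0.26), and Krt7 was 3.267, 7.981 and 25.03 in treated skins, against 0, 10.69 and 21.03 in control skins (-0.24 ± 0.34). Whether treatment acted differently in males and females was tested with an interaction term, which called 0 of 39 keratins and 0 of 12926 genes (0%) by edgeR, with 1 keratin, Krt7, and 2.31% of genes at an unadjusted p under 0.05.

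Gene lists that accompany the keratins gave 0 called genes between the arms by edgeR. The keratin-associated proteins, which crosslink hair keratin filaments, had 26 of 58 genes tested with a median log2 fold change of -1.50, and their summed level was 32.73, 593.8 and 1133 in treated skins, against 16.3, 266.6 and 11730 in control skins. The medians of the sums thus run against the fold, and without control mouse 71, whose sum was 11730 with 2801 in the next skin, the median log2 fold change was -0.08 over 22 genes tested. Without mice 18, 22 and 71 it turned to 1.13, with 0 of 17 genes below 0 and 7 at an unadjusted p under 0.05 by edgeR, and without mice 6, 9, 11, 18, 22, 23 and 37 it was -1.47 with 30 of 30 below 0. Mice 18, 22 and 71 were picked from the control arm for high hair keratins, so a move upward was built in. The follicle regulators had 10 of 15 genes tested with a median of -0.87, and the summed level was 668.6, 859.1 and 1579 in treated skins, against 427.7, 963.5 and 8092 in control skins. Without mouse 71 the median log2 fold change of this list was -0.17 over 9 genes. Cornified envelope genes (19 of 19 tested) had a median of -0.04 and desmosome and hemidesmosome genes (14 of 14 tested), which anchor the filaments, a median of 0.00. Fibroblast genes had 6 of 6 tested and a median of -0.48, and 3 of them had an unadjusted p under 0.05 in edgeR (Col1a2, -0.79 ± 0.24, SE; Col1a1, -0.78 ± 0.28; Col3a1, -0.69 ± 0.24; all with an edgeR adjusted p of 1). Their summed level was 478.9, 829.2 and 1375 in treated skins, against 382.8, 1152 and 2999 in control skins, and their part in the keratin values was not tested. Melanocyte genes, whose cells colour the growing hair, had 1 of 5 tested and a summed level of 6.533, 20.02 and 29.76 in treated skins, against 11.83, 24.08 and 63.89 in control skins.

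A second set of libraries stood apart in the epidermal class. Krt9 (11:100186781-100193246, minus strand, mm10), the type I keratin of footpad epidermis, was at 132.3 to 1834 in 7 skins and at 0 to 1.677 in the other 14. The 7 were treated mice 6 (1437), 9 (873.3) and 23 (132.3) and control mice 11 (1040), 18 (1298), 22 (1834) and 37 (214.5), of which mouse 37 is male and the others female. The same 7 skins held all Krt24 levels above 1000 (1155 to 2726, against 58.91 to 291.8 in the others) and the highest levels of filaggrin, Flg (17940 to 31080, against 3067 to 11810). Of these, mice 6, 9, 18 and 22 also had the skeletal muscle actin Acta1 at 467.2 to 992.7, against 6.186 or less in every other skin. The 6 skeletal muscle genes summed to 6.385, 17.56 and 4094 in treated skins, against 4.209, 14.52 and 4430 in control skins. Krt1 exceeded 10000 in mice 6 (15930), 18 (17680) and 22 (19370) and was 6120 or less elsewhere. Krt42 (140.7 and 196.7) and Krt90 (207.8 and 218.6) were high in mice 18 and 22 alone, and the other skins were at or under 10.47. Which part of the body each skin came from is not given in the labels, and its part in these differences was not tested. Without the 7 skins the median log2 fold change of the epidermal keratins for treatment was 0.01, and those of hair shaft and root sheath keratins were -1.51 and -1.53.

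Males and females differed in skin for 2 keratins. EdgeR called 2 of the 39 tested, both lower in males, when 0.528% of all genes were called and 0.23% were lower in males. Krt6b, with a median of 3.042 in males, may have passed the low count filter through the females. The 2 are therefore not a like share to that of all genes. Krt6b (ENSMUSG00000023041.6, 15:101676023-101680287, minus strand, mm10), a keratin of stressed and wounded epidermis, was 0, 3.042 and 14.44 in male skins, against 0, 45.58 and 370.8 in female skins, which is -4.53 ± 0.90 on the log2 scale (SE; adjusted p = 0.0155 by edgeR). Krt16 (ENSMUSG00000053797.10, 11:100246091-100248902, minus strand, mm10), its type I partner, was 22.82, 33.52 and 127.8 in male skins, against 38.31, 97.39 and 558.8 in female skins, which is -1.95 ± 0.43 on the log2 scale (SE; adjusted p = 0.038 by edgeR). The ranges overlap for both genes, and Krt6b was above 50 in 5 females (mice 6, 18, 20, 22 and 33; 80.82 to 370.8) and at or under 14.44 in every other skin. Krt6b was not tested when the abundant features were left out, and its call was kept in each of the 21 fits without 1 mouse. Krt16 kept its call in 6 of those 21. Without the 7 skins with Krt9 neither passed (Krt6b, log2 fold change -4.45, edgeR adjusted p = 0.132, and Krt16, -1.58, edgeR adjusted p = 0.585). That fit leaves out 6 of the 10 female skins, mice 6, 18 and 22 among them, so it had less power to call either gene.

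**Figure D4:**
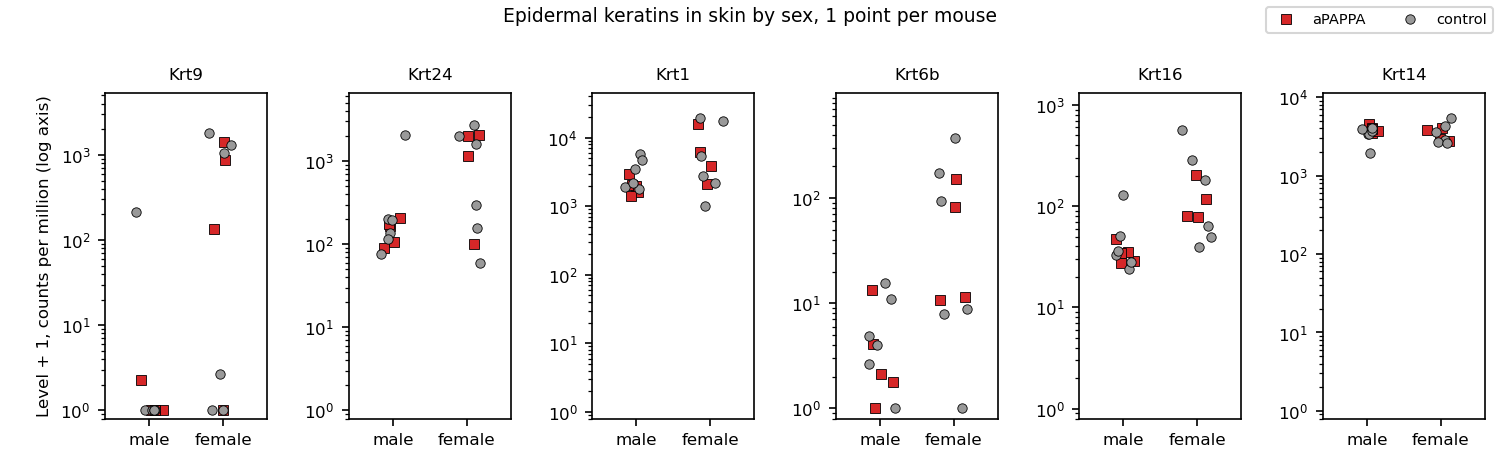
Levels of Krt9, Krt24, Krt1, Krt6b, Krt16 and Krt14 in each skin library (level plus 1, log axis), males left of females, with squares for aPAPPA and circles for control. Krt9 and Krt24 split into a high group of 7 skins and a low group of 14, Krt6b is high in 5 females, and Krt14 lies in a narrow band in both sexes.

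No other keratin passed the threshold between the sexes in skin. Krt9 was 0, 0 and 214.5 in male skins, against 0, 502.8 and 1834 in female skins (log2 fold change -5.36 ± 1.35, SE, edgeR adjusted p = 0.0805), Krt24 was 76.01, 165.7 and 2079 in male skins, against 58.91, 1377 and 2726 in female skins (-2.19 ± 0.73, edgeR adjusted p = 0.225), and Krt1 was 1430, 2040 and 5851 in male skins, against 1021, 4563 and 19370 in female skins (-1.65 ± 0.47, edgeR adjusted p = 0.154). Male 37 weighed on the first 2: without that mouse Krt9 and Krt24 passed (edgeR adjusted p = 0.00207 and 0.00825). Mouse 37 is the only male among the skins high in these 2 genes. Leaving it out removed the only high male values, so that pass was built in. Of the 21 fits without 1 mouse, Krt9 passed in 4 and Krt24 in 1. Without the 7 skins with Krt9 the log2 fold change of Krt1 turned to 0.40 and that of Krt24 was 0.05. These 7 hold every Krt24 level above 1000, every Krt1 level above 10000 and 6 of the 10 female skins. Leaving them out removes the high female values by choice, so the folds without them do not test a sex difference. Krt23 was 33.97, 98.78 and 155.6 in male skins, against 17.23, 40.68 and 132.9 in female skins (0.79 ± 0.26, edgeR adjusted p = 0.222). Krt14 averaged 3646 ± 665.5 in male skins and 3511 ± 892 in female skins (SD, n = 11 and 10; log2 fold change 0.00 ± 0.12). The epidermal keratins tested had a median log2 fold change of -0.58 with 10 of 16 below 0, the hair shaft ones 0.73 with 11 of 13 above 0, and all genes 0.00. Without control male 71 the hair shaft median was -0.59 with 12 of 13 below 0. No cornified envelope, desmosome or follicle regulator gene was called between the sexes in skin by edgeR, and the smallest adjusted p of the cornified envelope list was 0.174. At an unadjusted p under 0.05 edgeR had 10 of 19 cornified envelope genes, 7 of 14 desmosome and hemidesmosome genes and 3 of 6 fibroblast genes, against 12.1% of all genes. Without the 7 skins with Krt9, of which 6 are female, 1 of 19 cornified envelope genes and 0 of 14 desmosome and hemidesmosome genes had such a p, and the median log2 fold change of the cornified envelope list was 0.17, against -0.52 with all skins. Those 7 skins also have the highest Flg, a gene of that list, so part of this loss was built in. The collagen gene Col1a1 was 1.10 ± 0.28 higher in males on the log2 scale without passing (SE, adjusted p = 0.0827 by edgeR). The liver gene Alb, of the hepatocyte list, stood at 2.89 ± 0.67 (SE, edgeR adjusted p = 0.0502) and passed without mouse 71 (3.05, edgeR adjusted p = 0.0111). The summed hepatocyte genes were 7.161, 140 and 855.3 in male skins, against 11.41, 17.79 and 50.63 in female skins.

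Subscapular fat showed the widest sex differences among keratins. All 7 keratins tested there, of 54, were called by edgeR, when 15.4% of all genes were called: 6 were lower in males (6.18% of all genes) and Krt79 was higher (9.17%). Over all males Krt5, Krt14, Krt18 and Krt19 had 2, 3, 9 and 9 counts. They passed the low count filter through the females alone, so the share called cannot be read against that of all genes. Krt8 was 0, 0.5202 and 3.45 in males, against 0, 93.64 and 299.7 in females (log2 fold change -6.31 ± 0.81, SE, edgeR adjusted p = 3.16e-05). Krt18 was 0, 0 and 3.823 in males, against 0, 117.2 and 266.8 in females (edgeR adjusted p = 2.73e-05), and Krt19 was 0, 0 and 2.017 in males, against 0, 90.4 and 308.8 in females (edgeR adjusted p = 1.61e-05). Every male was at or under 3.823 for these 3 keratins. Krt7 was 1.04, 2.064 and 4.604 in males, against 3.283, 42.48 and 97.62 in females (log2 fold change -3.50 ± 0.46, edgeR adjusted p = 4.48e-05). The basal pair followed: Krt5 was 0, 0 and 1.274 in males, against 0, 12.56 and 42.06 in females (edgeR adjusted p = 1.61e-05), and Krt14 was 0, 0 and 0.7285 in males, against 0, 19.41 and 43.14 in females (edgeR adjusted p = 8.98e-06). In summed counts Krt18 had 9 in males and 1068 in females, a ratio of levels of 0.00523 (95% exact interval 0.00238 to 0.00996, counting error only), and Krt5 had 2 in males and 227 in females, a ratio of 0.00546 (0.000658 to 0.02). Krt79, known from the ducts of sebaceous glands, was 0, 7.23 and 18.78 in males, against 0, 1.142 and 5.472 in females (log2 fold change 2.57 ± 0.58, SE, edgeR adjusted p = 0.00824).

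**Figure D5:**
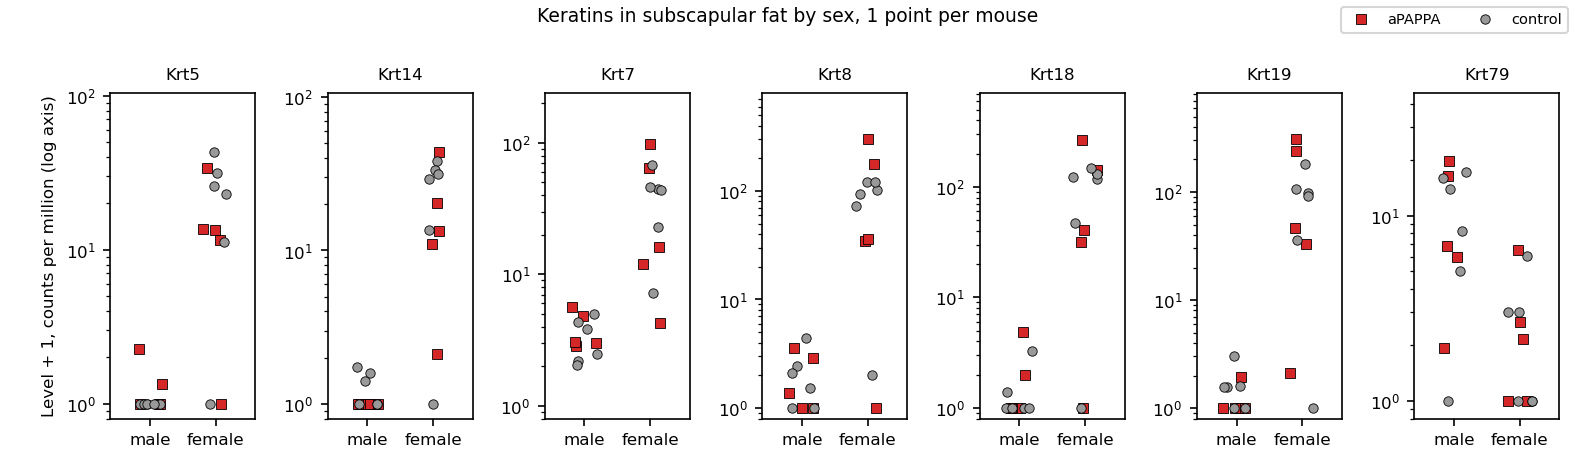
Levels of the 7 keratins tested in subscapular fat in each mouse (level plus 1, log axis), males left of females, with squares for aPAPPA and circles for control. Males lie at or near 0 for Krt5, Krt14, Krt8, Krt18 and Krt19, most females lie well above them, and Krt79 runs the other way.

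All 7 calls held in each of the 22 fits without 1 mouse, and Krt79 lost its call when the abundant features were left out. Females 20 and 33 were low like the males, with Krt8 at 1.029 and 0, and the other 9 females had 33.4 to 299.7, above every male. Genes of epithelial identity moved with these keratins: 7 of 7 tested, of 11 on the list, were lower in males, with a median log2 fold change of -5.86 (E-cadherin, Cdh1, -5.86 ± 0.69; Epcam, -8.69 ± 1.11). The summed level of that list was 4.604, 12.51 and 33.13 in males, against 17.49, 232.2 and 544.9 in females. On the mammary epithelium list 2 of 2 genes tested, of 6, were lower in males, Elf5 (-2.77 ± 0.52) and Csn3 (-2.50 ± 0.48), and the summed level was 0.5202, 4.649 and 10.19 in males, against 1.094, 43.39 and 66.6 in females, with the milk protein genes Csn2, Csn1s1, Lalba and Wap at a median of 0 in females. Of the desmosome and hemidesmosome list 4 of 8 genes tested were lower in males, and of the follicle regulators 2 of 2 (Gata3 and Trps1). In these lists too, a gene near 0 in males could be tested only if the females carried it past the low count filter. Such counts are not a like share of all genes. Skeletal muscle genes, at 3.837 to 71640 in males and 16.03 to 55400 in females, gave 0 calls of 6 tested. Adipocyte genes gave 0 calls of 6 as well, with 3 at an unadjusted p under 0.05 by edgeR and a median log2 fold change of 0.63. The hepatocyte gene Alb was higher in males (2.99 ± 0.70, SE, edgeR adjusted p = 0.0105), the fibroblast gene Pdgfra was lower (-0.77 ± 0.25, edgeR adjusted p = 0.0395), and so was Ppl of the cornified envelope list (-1.15 ± 0.37, edgeR adjusted p = 0.0396). The sebocyte gene Elovl3 had a log2 fold change of 2.49 ± 1.12 (edgeR adjusted p = 0.129). The part of other cell types in these differences was not tested.

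Kidney and liver showed small sex differences in simple epithelial keratins. In kidney 2 of 3 keratins tested were called by edgeR, when 24.9% of all genes were called. Krt8 was 64.02, 76.82 and 89.27 in males, against 39.71, 55.4 and 73.94 in females (log2 fold change 0.59 ± 0.09, SE, edgeR adjusted p = 1.78e-05), and Krt7 was 31.33, 41.23 and 68.74 in males, against 55.98, 69.97 and 84.6 in females (-0.57 ± 0.13, edgeR adjusted p = 0.00159). The ranges overlapped for both. Krt18 had a log2 fold change of -0.10 ± 0.25 (edgeR adjusted p = 0.837). In liver 1 of 2 tested was called, when 27% of all genes were: Krt8 was 125.8, 166.8 and 190.8 in males, against 87.6, 133.5 and 188.9 in females (0.37 ± 0.12, edgeR adjusted p = 0.0215), while Krt18, its partner, was 102.3, 119.5 and 141.5 in males, against 81.36, 125.6 and 136.3 in females (0.15 ± 0.09, edgeR adjusted p = 0.246). The difference between the 2 genes' folds was not tested.

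No keratin was called between the sexes in gonadal fat (0 of 5 tested; 14.4% of all genes called), lung (0 of 7; 0.107%), spleen (0 of 1; 3.99%), bone marrow (0 of 2; 0.659%) or heart (0 of 4; 0.203%) by edgeR, and none by DESeq2. At an unadjusted p under 0.05 edgeR had 1 keratin in gonadal fat (28.3% of all genes) and 1 in lung (9.55%), and 0 in spleen (18.3%), bone marrow (13.5%) and heart (10.2%). Krt19 was both of these, at -0.79 ± 0.32 (SE, edgeR adjusted p = 0.1) in gonadal fat and -0.50 ± 0.18 (edgeR adjusted p = 0.37) in lung, and it passed in gonadal fat without control mouse 11 or treated mouse 70 (edgeR adjusted p = 0.0351 and 0.0409). In gonadal fat the 6 mesothelium genes, from the cells that cover the depot, all had log2 fold changes below 0 (-1.51 to -0.38), and Upk3b was called lower in males (-1.51 ± 0.30, SE, adjusted p = 0.00176 by edgeR). Their summed level was 47.76, 291.5 and 486.3 in males, against 144.4, 522.7 and 816.2 in females. Macrophage genes had 4 of 5 called higher in males (summed level 1444, 3577 and 8758 in males, against 662.1, 1711 and 2846 in females), and hepatocyte genes 4 of 5 (36.99, 226.7 and 2624 in males, against 27.52, 68.01 and 488.4 in females). The part of these cells in the Krt19 values was not tested. Krt14 in gonadal fat was 0 to 67.61 and was not among the 5 keratins tested there. Without treated mouse 58, whose adipocyte markers were low, it was tested and called higher in males (log2 fold change 2.03, edgeR adjusted p = 0.0217).

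Treatment called no keratin in any tissue outside skin by edgeR: 0 of 5 tested in gonadal fat, 0 of 7 in subscapular fat, 0 of 4 in heart, 0 of 3 in kidney, 0 of 2 in liver, 0 of 7 in lung and 0 of 1 in spleen, with 0% of all genes called in each, and 0 of 2 in bone marrow, where 0.00724% were. No keratin had an unadjusted p under 0.05 in these 8 tissues, against 5.07% of all genes in gonadal fat, 2.52% in subscapular fat, 6.94% in bone marrow, 2.92% in heart, 6.86% in lung, 5.21% in spleen, 4.12% in kidney and 3.59% in liver, and DESeq2 called none. Lung, with the highest simple epithelial levels, had log2 fold changes within 0.14 of 0 for all 7. Krt18 in liver stood at 0.10 ± 0.09 (SE) and Krt18 in gonadal fat at 0.46 ± 0.40, and the widest value was that of Krt19 in heart, -1.22 ± 0.74.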

How the data were processed

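Total RNA of whole tissues was made into stranded libraries, per the labels' protocols. The authors deposited whole-number counts per gene. Per the submitters' processing notes, FastQC 0.11.5 and Salmon were used and the build named is mm10, while the annotation, the use of strand and the rounding of estimates are not stated there. RNA left from ribosomes takes most counts, which lowers the depth for keratins. Gene positions and exonic lengths came from GENCODE vM21 on mm10 (all 54 keratins matched by identifier), and promoter sequences from RefSeq (GRCm38.p6).

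Counts were tested per tissue by the quasi-likelihood test of edgeR 4.0.16 (TMM scaling, filterByExpr, sex and treatment as terms) in R 4.3.3, with p-values adjusted by Benjamini-Hochberg over all genes tested and a threshold of 0.05, two-sided. Tissues were compared in a single fit of 197 libraries, each tissue over the mean of the other 8. The tissues came from the same mice, so a fit with the mouse as a block was an alternative, and its counts are given with the limits. Alternatives were DESeq2 1.42.0, no low count filter, RLE scaling, the abundant features or sex left out, the libraries with low tissue markers left out, mouse 36 kept and each mouse left out. The tests were tested on simulated data. Levels and figures were made with Python 3.11.15. Per-group triples are the lowest, median and highest library. Each SE of a log2 fold change, also in the figure, is the absolute fold divided by the square root of the test's F statistic. It is not an error estimated by the fit itself, and it is rough for folds near 0 and for groups near 0.

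The members, their classes and the other gene lists were chosen with earlier results of these data known. Keratins were named by a rule (the 3 with the highest mean per class or tissue, the 3 with the smallest p per direction, and those past the threshold), and Krt9, Krt14, Krt5, Krt15, Krt17, Krt24, Krt42, Krt90 and the follicle genes with printed promoters, among others outside it, were chosen after their values were seen.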

Additional observations from a re-analysis of the deposited data

Results flagged for a closer look

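Of 49 sets of keratin values checked, each from the 9 or 10 treated mice of a tissue, 9 held a library far from the rest, and chance gives about 1 in 20 where values are normally spread. That rate was not computed for these levels, many of which are skewed, or for groups that hold both sexes. The control groups hold more than 10 mice and were not checked. In treated skins, mouse 6 had the highest Krt1 (15930, next 6120, median 2102) and the highest Krt27, a root sheath keratin (221.5, next 112.6, median 57.16). Mouse 6 is among the 7 skins with Krt9. Mouse 56 had the highest Krt7 in skin (25.03, next 13.65, median 7.981) and mouse 23 the highest Krt36 (34.3, next 17.78, median 5.819). In treated hearts, mouse 56 had 143.6 for Krt18 (next 14.06, median 1.96) and 0.9744 for Krt222 (next 12.91, median 14.66). That heart library had the low cardiomyocyte markers given above. In treated spleens, mouse 36 had 19.01 for Krt80 (next 10.47, median 8.034). In treated subscapular fat, female 6 had 43.14 for Krt14 (next 19.41, median 0.5472) and 32.92 for Krt5 (next 12.56, median 0.8092). Those groups hold both sexes, and the males were at or near 0. The part of tissue sampling in these values was not tested.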

How the results depend on the processing

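Counts of called keratins stayed within 1.5 times the value reported in 322 of 350 settings over 28 results. The treatment and interaction results among these are 0 calls, where almost no gene of any kind was called, so staying at 0 was largely fixed in advance. The other 28 settings belonged to the sex comparison in skin and in gonadal fat. For skin (2 keratins) the counts were 3 by DESeq2 and 3 with no low count filter, 1 with the abundant features left out, 1 without mice 18, 22 and 71, 0 without the 7 skins with Krt9, and 1 to 4 when each mouse was left out. For gonadal fat (0 keratins) they were 2 with no low count filter, 1 with the abundant features left out, 1 without the library with low adipocyte markers, and 0 to 1 when each mouse was left out. With the mouse as a replicate block in the tissue fit, 14 keratins were called in bone marrow, 11 in lung, 15 in subscapular fat and 27 in skin, and the other 5 tissues kept their counts. The share of all genes called with that block is not given here. Of the values for single genes 1524 kept their direction and side of the threshold, 17 no longer passed and 9 came to pass. The other 97, over 35 results, changed direction, and 0 of these passed the threshold in either fit. All are log2 fold changes. For treatment in skin without mice 18, 22 and 71, Krt81 stood at 0.92, Krt87 at 0.51, Krt33a at 1.095, Krt71 at 0.66, Krt25 at 0.65, Krt27 at 1.105, Krt1 at 0.22, Krt10 at 0.007 and Krt2 at -0.21. Krt2 was -0.13 with mouse 36 kept, and without the 7 skins with Krt9 Krt10 was 0.037 and Krt7 0.33. For sex in skin, without mice 18, 22 and 71 Krt71 was -0.28, Krt25 -0.195 and Krt27 -0.036, and without the 7 skins Krt10 was 0.065, Krt1 0.40 and Krt7 -0.074. Outside skin, the treatment value of Krt19 was -0.11 in subscapular fat by DESeq2, 0.024 in gonadal fat with sex left out and 0.12 without the library with low markers, and in lung -0.006 with no low count filter, -0.036 with sex left out and -0.033 without mouse 68, when Krt8 was -0.029, and Krt18 in heart was -0.14 by DESeq2. When each mouse was left out in turn, treatment in skin gave Krt33a -1.65 to 0.089 and Krt27 -1.62 to 0.05, both at their highest without mouse 71 (as was Krt82, at 0.44), Krt2 -0.21 to 0.27 and Krt10 -0.24 to 0.072. Sex in skin gave Krt81 -0.79 to 1.05, Krt87 -0.585 to 1.03, Krt33a -0.37 to 1.52, Krt82 -0.037 to 1.885, Krt71 -1.05 to 0.65, Krt25 -0.895 to 0.635, Krt27 -1.03 to 0.72 and Krt7 -0.088 to 0.27. Treatment in gonadal fat gave Krt19 -0.21 to 0.12, Krt8 -0.045 to 0.50 and Krt7 -0.032 to 0.36, in kidney Krt8 -0.028 to 0.064, Krt7 -0.11 to 0.042 and Krt18 -0.16 to 0.058, in liver Krt8 -0.075 to 0.02, and in subscapular fat Krt19 -0.23 to 0.60, Krt8 -0.39 to 0.44 and Krt18 -0.565 to 0.32. Sex gave Krt8 in gonadal fat -0.285 to 0.26 and Krt18 in kidney -0.21 to 0.004. Leaving out mice in comparisons other than treatment in skin, and leaving out the 7 and the 3 skins, were chosen after seeing the data. The 3 are control skins picked by hair keratin level, and the 7, of which 6 are female, were picked by Krt9 level. Fits without them therefore shift the follicle keratins and the sex comparison by choice of library. The cause of the other changes of direction was not tested. At the median depth of a skin library 3 counts correspond to 4.56 CPM, and several hair keratins were at 0 in some skins. The p-values of the edgeR fits within a tissue rest on the spread between these mice. Those of the tissue comparison come from a fit without the mouse as a block, which treats the libraries of 1 mouse as independent.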
